A study of Sus scrofa with 34 samples.

Results

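The acute phase proteins described here are 10 named plasma proteins made by the liver. Their genes were chosen by symbol, not by a cut on measured values, though earlier results of these data were known. The symbols were HP, CRP, ITIH4, ITIH3, ORM1, LBP, HPX, CP, ALB and TTR. Of these 10, 8 could be tied to 1 gene ID each among the 25880 genes counted, through a table of pig gene IDs and symbols. No gene ID was matched to HP (haptoglobin) or ORM1 (alpha-1-acid glycoprotein), so no values are given for either, and all counts below are out of 8.

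Acute phase proteins are secreted by hepatocytes, and their level in plasma moves within days of an infection, injury or inflammation. Interleukin 6 acts through its receptor and the factor STAT3, and interleukin 1 acts through NF-kB and C/EBP factors, to raise the transcription of the positive acute phase genes, while the negative acute phase proteins fall. In the pig, haptoglobin, C-reactive protein and ITIH4 (also called pig major acute phase protein) are used as health markers. CRP is a pentraxin that binds phosphocholine on bacteria and damaged cells, and LBP hands bacterial lipopolysaccharide to CD14 and Toll-like receptor 4. ITIH4 and ITIH3 are heavy chains of the inter-alpha-trypsin inhibitor family. CP (ceruloplasmin) is a copper-carrying ferroxidase and HPX (hemopexin) binds free heme. ALB (albumin) and TTR (transthyretin, a carrier of thyroid hormone and of retinol-binding protein) are negative acute phase proteins.

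RNA was sequenced from the liver of 24 weaned crossbred piglets at day 28 of a feeding trial, 6 on each of 4 diets, and from the ileum of 10 of them, 5 control and 5 PFA. The control diet (CTR in the labels) was the basal feed, PFA was the basal feed with a phytogenic feed additive (a blend based on essential oils), OO was the feed with oxidized rapeseed oil added as a model of oxidative stress, and OO+PFA had both. The added oil diluted the other ingredients and raised the calculated energy of the feed, so oxidation and added fat cannot be told apart. All piglets were Landrace × Large White × Pietrain crosses, neither an infection nor an endotoxin is described for any group, and each diet was fed in 1 pen, so diet and pen cannot be told apart. Piglets are named by the number in their library title, and p-values measure the spread between piglets of 1 pen.

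Between 18738055 and 42446834 read pairs per liver and between 18772230 and 24338165 per ileum were counted on genes. The OO+PFA liver of pig 77, which the study left out for suspected RNA degradation, stood apart, with 46.4% of its counts on mitochondrial genes against 7.86 to 29.9% in the other 23 livers, and it was left out of the fits. In those 23 livers the 8 genes together took 6.76 to 15.2% of the counts, against 0.0036 to 0.008% in the ileum. The summed level of 10 hepatocyte markers was 28670 to 49590 CPM (counts scaled to library size by edgeR, with TMM factors) in the livers and 3875 to 8708 CPM in the ileum. CYP2E1 and AHSG were at 2006 CPM or more in every liver and at 0 in every ileum, while APOB, APOA1 and CPS1 overlapped between the tissues. The summed level of 5 enterocyte markers was 256.7 to 915.6 CPM in the livers and 13650 to 22010 CPM in the ileum. Of these, FABP2 and SI were at most at 0.117 CPM in the livers, ANPEP was at 225 to 559 CPM there, and APOA4 overlapped between the tissues.

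To show the stretches of DNA from which these genes are read, the 250 bases before the annotated mRNA start of the members are printed for CRP, ITIH4, LBP and CP, whose levels moved together from pig to pig (below), and for ALB and TTR, whose levels moved less. The windows are from Sscrofa11.1 (RefSeq), written 5′ to 3′ on the strand of the gene, and the start used is the one shared by most annotated mRNAs. RefSeq places 2 loci named CRP on chromosome 4 (90782741 to 90785051 and 90793361 to 90801020), and the gene ID counted as CRP could not be tied to either, so both are shown. Their spliced mRNAs align over 713 bases with 82.0% identity, so counts of CRP may depend on how read pairs were shared between them.
CRP, first locus, chr4:90782491-90782740, plus strand: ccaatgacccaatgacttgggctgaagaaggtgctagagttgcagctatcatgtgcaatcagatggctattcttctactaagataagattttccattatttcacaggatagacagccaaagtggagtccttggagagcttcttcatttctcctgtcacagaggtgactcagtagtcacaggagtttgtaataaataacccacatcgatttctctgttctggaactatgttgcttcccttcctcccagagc
CRP, second locus, chr4:90793111-90793360, plus strand: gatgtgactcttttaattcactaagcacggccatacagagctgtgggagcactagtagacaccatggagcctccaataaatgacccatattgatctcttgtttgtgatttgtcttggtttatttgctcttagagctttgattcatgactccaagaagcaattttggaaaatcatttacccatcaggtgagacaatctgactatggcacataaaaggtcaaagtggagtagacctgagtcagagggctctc
ITIH4, chr13:34946121-34946370, minus strand: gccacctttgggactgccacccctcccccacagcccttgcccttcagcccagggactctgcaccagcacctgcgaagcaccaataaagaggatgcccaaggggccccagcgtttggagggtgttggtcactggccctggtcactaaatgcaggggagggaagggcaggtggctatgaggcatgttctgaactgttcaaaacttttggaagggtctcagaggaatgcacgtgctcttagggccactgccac
LBP, chr17:41398685-41398934, plus strand: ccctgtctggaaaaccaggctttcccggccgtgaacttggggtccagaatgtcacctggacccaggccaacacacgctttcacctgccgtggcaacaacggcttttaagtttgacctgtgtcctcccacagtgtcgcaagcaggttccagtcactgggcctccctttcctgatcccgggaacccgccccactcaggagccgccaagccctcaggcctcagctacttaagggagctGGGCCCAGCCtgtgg
CP, chr13:89463541-89463790, minus strand: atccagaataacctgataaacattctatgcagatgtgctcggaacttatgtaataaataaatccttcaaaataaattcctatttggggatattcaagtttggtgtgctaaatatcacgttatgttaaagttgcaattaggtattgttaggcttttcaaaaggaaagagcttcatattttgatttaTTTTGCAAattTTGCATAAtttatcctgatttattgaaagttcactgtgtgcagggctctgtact
ALB, chr8:69643222-69643471, plus strand: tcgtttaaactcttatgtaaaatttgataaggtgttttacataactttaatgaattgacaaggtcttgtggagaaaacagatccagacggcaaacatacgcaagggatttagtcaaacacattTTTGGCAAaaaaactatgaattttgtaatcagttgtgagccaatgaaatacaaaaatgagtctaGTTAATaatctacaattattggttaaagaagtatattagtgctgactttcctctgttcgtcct
TTR, chr6:115496088-115496337, plus strand: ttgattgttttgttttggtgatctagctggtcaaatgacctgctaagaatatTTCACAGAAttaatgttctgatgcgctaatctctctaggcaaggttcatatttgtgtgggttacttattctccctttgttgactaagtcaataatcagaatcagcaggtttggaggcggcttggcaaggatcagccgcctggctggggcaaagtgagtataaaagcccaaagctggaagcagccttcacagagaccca
Capitals mark matches, on either strand, to 4 short motifs of factors known from acute phase and liver genes. The motifs searched were TTCNNNGAA (STAT), TTNNGCAA (C/EBP) and GTTAAT (HNF1), where N is any base, and GGG and CC with any 5 bases between them (NF-kB). In the windows of 19556 protein-coding genes, 6.08% held the STAT motif, 7.99% the C/EBP motif, 59.9% the NF-kB motif and 5.84% the HNF1 motif. CP held 2 C/EBP matches, 65 to 58 and 54 to 47 bases before the start. LBP held 1 NF-kB match, TTR 1 STAT match, and ALB 1 C/EBP match and 1 HNF1 match, with no 2 of these matches overlapping within a window. The windows of ITIH4 and of both CRP loci held none of these letters, and a match or its absence in 250 bases says nothing of whether a factor binds.

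The first question was whether the diets moved the acute phase genes of the liver. None of the 8 genes passed the test in any of the diet comparisons at an adjusted p of at most 0.05 (two-sided quasi-likelihood test of edgeR, Benjamini-Hochberg adjusted over 13831 genes). In bulk tissue, fewer cells of a type and less RNA per cell cannot be told apart. Over the 4 diets together, 3.66% of all genes tested were called, and 0 of the 8 members. At an unadjusted p under 0.05 the test across diets gave 1 of the 8, ITIH3, beside 25.2% of all genes, and DESeq2's likelihood ratio test called 1, also ITIH3 (adjusted p = 0.0371), with 1776 genes in all.

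CRP had the widest range of the 8. In the control livers it lay between 427 and 4194 CPM with a median of 690 CPM (n = 6), and in the PFA livers between 345 and 2489 CPM with a median of 1155 CPM (n = 6). In the OO livers it lay between 270.3 and 3583 CPM with a median of 557 CPM (n = 6). The 5 OO+PFA livers were at 223, 333, 443, 662 and 4118 CPM. Each diet thus held pigs at the low end and at least 1 pig several times higher, and all 4 diets overlapped. The log2 difference of OO from control was -0.30 (standard error 0.76, adjusted p = 0.851), and its 95% interval ran from -1.88 to 1.27. That difference was 0.61 without control pig 71 and -1.33 without OO pig 97, so single pigs set its sign. For PFA against control it was -0.04 (standard error 0.76, adjusted p = 0.990). Across the diets CRP had an adjusted p of 0.987, and diet accounted for 3.97% of the variance of its log2 CPM, where the median over all genes was 21.3%. The interval for OO spans 0.272 to 2.41 times the control level, and changes within it are compatible with these 6 pigs a diet.

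LBP was at 195 to 679 CPM (median 251) in control, 74.7 to 368 CPM (median 176) with PFA and 135 to 398 CPM (median 148) with OO. In the OO+PFA livers it was at 109, 117, 123, 147 and 549 CPM. The ranges overlapped in every comparison, although 4 of the 5 OO+PFA livers lay below the lowest control liver. The medians with PFA and with OO lay below that liver too, and the share of all genes with such a split was not counted. The log2 difference from control was -0.62 with OO (standard error 0.43, adjusted p = 0.425), -0.70 with PFA (standard error 0.43, adjusted p = 0.551) and -0.57 with OO+PFA (standard error 0.45, adjusted p = 0.499).

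ITIH4 was at 1353 to 4506 CPM (median 1788) in control and at 1599.6 to 3852 CPM (median 1726) with PFA. It was at 872 to 2453 CPM (median 1298) with OO, and the OO+PFA livers were at 807, 921, 1074, 1164 and 3747 CPM. As for LBP, 4 of the 5 OO+PFA livers lay below the lowest control liver and pig 79 lay above 5 of the 6. The median with OO was also below the lowest control liver, while all PFA livers were above it. OO differed from control by -0.71 on the log2 scale (standard error 0.38, adjusted p = 0.286, 95% interval -1.51 to 0.08), and OO+PFA by -0.58 (standard error 0.40, adjusted p = 0.431). ITIH4 and CP were at like levels per length in the control livers, at 477 ± 252 and 411 ± 197 CPM per kb of exon (SD, n = 6).

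CP was at 1324 to 4685 CPM (median 2230) in control, at 1672 to 5129 CPM (median 2499.8) with PFA and at 1480.5 to 4342 CPM (median 1793) with OO. The OO+PFA livers were at 1396, 1484, 1633, 1686 and 3487 CPM. All 4 ranges overlapped, and the adjusted p across the diets was 0.492. The largest of its differences from control was -0.34 on the log2 scale with OO+PFA (standard error 0.35, adjusted p = 0.6252).

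**Figure D1:**
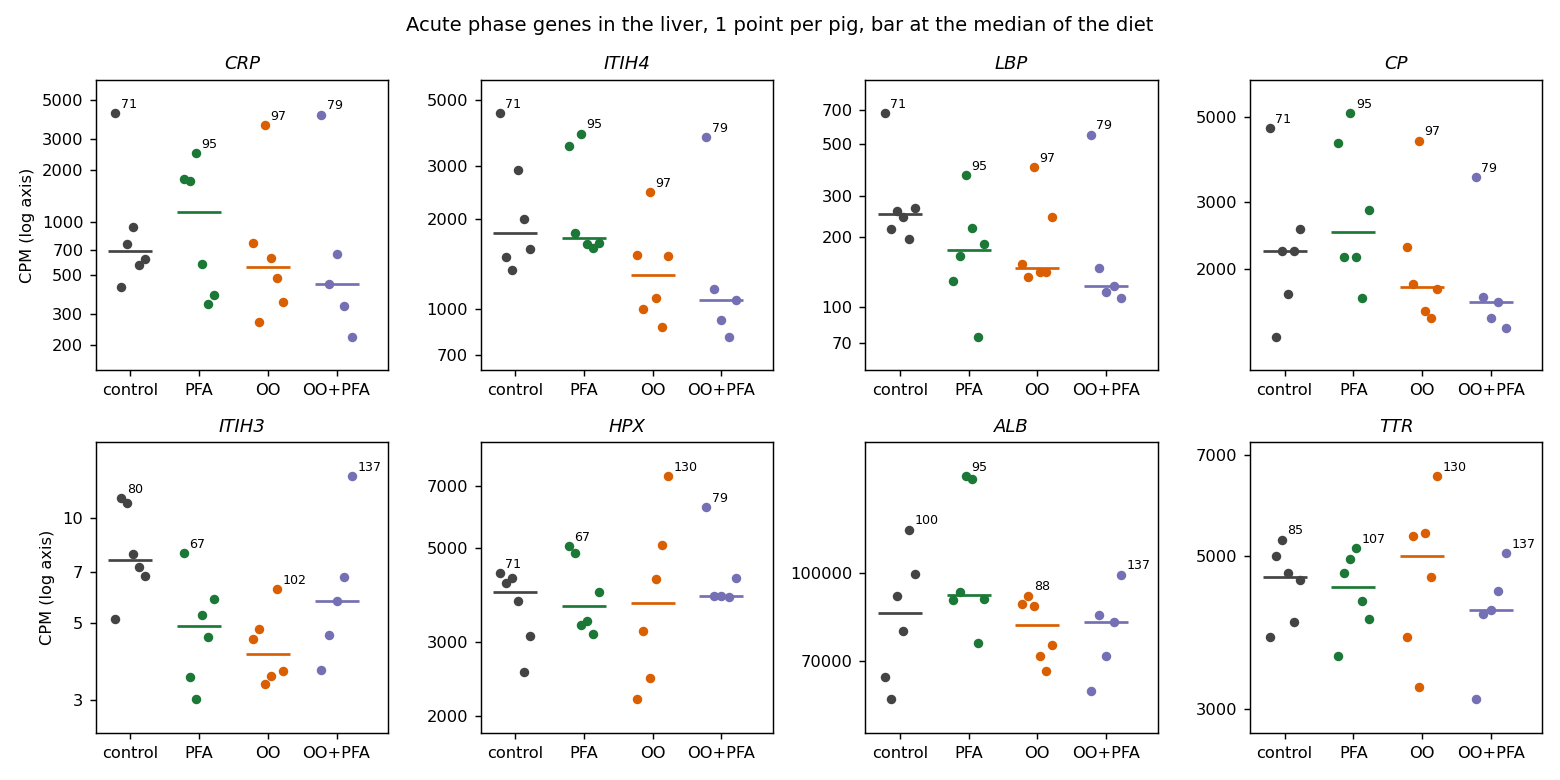
Level of the 8 acute phase genes in CPM (log axis) in the 23 livers by diet, with 1 point per pig, a bar at the median of the diet and the number of the highest pig beside its point. In CRP, ITIH4, LBP and CP the same pig is highest in each diet (71 in control, 95 with PFA, 97 with OO and 79 with OO+PFA), while HPX, ALB and TTR span a narrower range.

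ITIH3 came closest to a call. It was at 5.11 to 11.4 CPM (median 7.55) in control, 3.01 to 7.92 CPM (median 4.89) with PFA and 3.33 to 6.23 CPM (median 4.06) with OO. The OO+PFA livers were at 3.66, 4.599, 5.76, 6.75 and 13.2 CPM. The control livers were the highest as a group, but control and OO overlapped, since control pig 71 lay within the OO range. OO was 1.91-fold lower than control (log2 difference -0.93, standard error 0.28, unadjusted p = 0.00319, adjusted p = 0.0710), in a comparison where 2.71% of all genes were called and 0 of the 8 members. DESeq2 called this difference (adjusted p = 0.0191), as did edgeR with a correction for GC content (adjusted p = 0.0414) or without the OO+PFA pig of highest ITIH3 (adjusted p = 0.0392). PFA alone differed from control by -0.71 (standard error 0.28, adjusted p = 0.389).

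Whether the effect of OO on ITIH3 differed with and without PFA was tested as an interaction, which did not pass. OO+PFA was above OO by 0.65 on the log2 scale (standard error 0.29, adjusted p = 0.575), or by 0.26 without the OO+PFA pig at 13.2 CPM (adjusted p = 0.930), and the interaction of OO and PFA was 1.36 (standard error 0.41, unadjusted p = 0.00276, adjusted p = 0.180, 95% interval 0.52 to 2.20). In both of these comparisons, as in PFA against control, 0% of the 13831 genes were called by edgeR (smallest adjusted p 0.0505 for the interaction, 0.0900 for OO+PFA against OO and 0.166 for PFA against control). At an unadjusted p under 0.05 there were 1881, 1176 and 1522 genes, and DESeq2 called 150, 31 and 43, none of them a member. Among the 8 members, 1 had an unadjusted p under 0.05 in each of these 3 comparisons, and each time it was ITIH3.

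Hemopexin (HPX) did not pass in any comparison. It was at 2543 to 4347 CPM (median 3932) in control, at 3119 to 5035 CPM (median 3643) with PFA and at 2189 to 7394 CPM (median 3700.4) with OO. The OO+PFA livers were at 3824, 3850.5, 3851, 4245 and 6226 CPM. OO had both the lowest and the highest liver of all, pigs 74 and 130. The log2 difference was 0.15 for OO against control (standard error 0.24, adjusted p = 0.757) and 0.26 for OO+PFA against control (standard error 0.25, adjusted p = 0.605). In that last comparison 5.08% of all genes were called and 0 of the 8 members.

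The 2 negative acute phase genes, ALB and TTR, did not pass in any comparison either. ALB was at 59974 to 119053 CPM (median 85153) in control, 75276 to 147967 CPM (median 91394) with PFA and 67373 to 91116 CPM (median 81093) with OO. The OO+PFA livers were at 62103, 71539, 81976, 84220.3 and 99227 CPM. TTR was at 3809.9 to 5278 CPM (median 4666) in control and at 3579 to 5133 CPM (median 4509.8) with PFA. It was at 3229 to 6531 CPM (median 5003) with OO, and at 3097, 4125, 4177, 4455 and 5042 CPM in the OO+PFA livers. All diets overlapped for both genes. The largest difference from control was that of ALB with PFA, at 0.32 on the log2 scale (standard error 0.21, adjusted p = 0.573, 95% interval -0.11 to 0.74). The TTR difference from control was 0.08 with OO (standard error 0.16, adjusted p = 0.811, 95% interval -0.25 to 0.41), an interval of 0.840 to 1.33 times the control level. With OO+PFA the TTR difference from control was -0.13 (standard error 0.17, adjusted p = 0.716). Per kb of exon, ALB stood at 31376 ± 8078 CPM and TTR at 7840.4 ± 968 CPM in control (SD, n = 6), above HPX at 2344 ± 459.8, LBP at 179 ± 105.5 and ITIH3 at 2.63 ± 0.792.

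**Figure D2:**
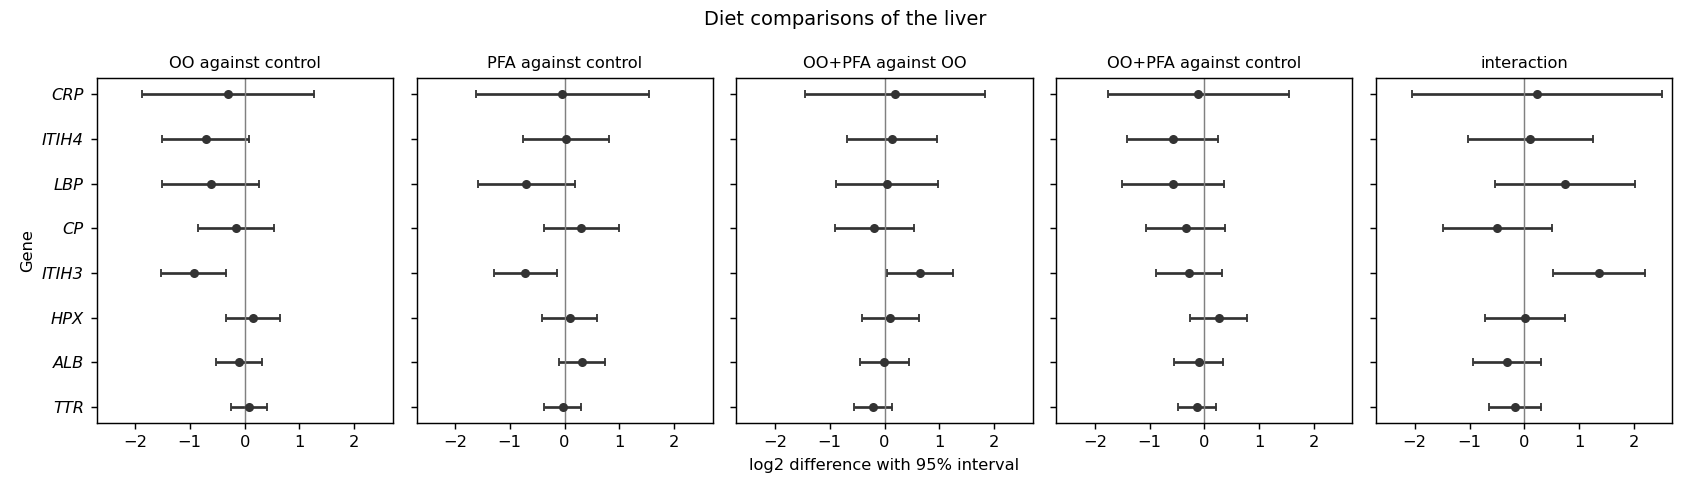
Log2 differences of the 8 genes in 4 diet comparisons of the liver and in the interaction of OO and PFA (edgeR, 23 livers), with 95% intervals as bars and a line at 0. The intervals are widest for CRP and narrowest for TTR, and ITIH3 lies lowest in OO against control, at -0.93.

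Of the 8 members, 2 had a positive and 6 a negative log2 difference in OO against control, with a median of -0.23 against 0.06 over all genes, and 1 was positive and 7 were negative in OO+PFA against control, with a median of -0.21 against -0.01. Both comparisons share the same control livers. In PFA against control 4 were positive and 4 negative.

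The second question was how the genes varied among pigs on the same diet. The SD of log2 CPM within diets was 1.34 for CRP, larger than in 99.04% of the 13831 genes and than in 99.8% of the 500 genes of most similar level. It was 0.76 for LBP, 0.67 for ITIH4 and 0.59 for CP, each larger than in at least 93% of genes of similar level, and 0.50 for ITIH3. It was 0.43 for HPX, 0.32 for ALB and 0.26 for TTR, beside a median of 0.35 over all genes. CRP, LBP, ITIH4 and CP thus spread most, and ALB and TTR spread less than the median of all genes. Among the 500 genes of most similar level, HPX spread more than 79.6%, ALB more than 56.6% and TTR more than 36.6%.

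The high values fell in the same pigs. In each of the 4 diets the pig with the highest CRP was also the highest of its diet for ITIH4, LBP and CP, and the lowest for ITIH3. Control pig 71 had 4194 CPM of CRP, where the other control pigs had 427 to 938, with 4506 CPM of ITIH4, 679 of LBP and 4685 of CP. PFA pig 95 had 2489 CPM of CRP, 3852 of ITIH4, 368 of LBP and 5129 of CP. OO pig 97 had 3583 CPM of CRP, where the other OO pigs had 270.3 to 762, with 2453 CPM of ITIH4, 398 of LBP and 4342 of CP. OO+PFA pig 79 had 4118 CPM of CRP, where the others had 223 to 662, with 3747 CPM of ITIH4, 549 of LBP and 3487 of CP. As the pig of highest CRP was picked within each diet, these 4 pigs came from 4 diets and 4 pens by that choice. PFA had further pigs between the extremes, since pigs 67 and 75 had 1773 and 1730.1 CPM of CRP, and pig 67 also had 3499.5 CPM of ITIH4 and 4278 of CP but 130 of LBP, below the median of its diet. TTR was the lowest of its diet in pigs 71, 97 and 79, at 3809.9, 3229 and 3097 CPM, but not in pig 95.

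The pigs were named after their values were seen, so these counts describe the 4 livers and test nothing. Over all 13831 genes, pig 71 was the highest of its diet in 17.7% of genes, pig 95 in 29.0%, pig 97 in 24.6% and pig 79 in 31.4%, against 5, 5, 4 and 5 of the 8 members. The summed hepatocyte markers were at 47110 CPM in pig 71, 49550 in pig 95, 43440 in pig 97 and 44900 in pig 79, the top value of the diet in pigs 71, 97 and 79 and just under the 49590 of another pig with PFA. These markers include FGB and SERPINA1, listed below among the positive acute phase genes, and AHSG and APOA1, listed among the negative ones. FGB was at 5613 to 21590 CPM and AHSG at 11650 to 21040 CPM in the livers. The sum is thus not separate from the acute phase genes. The other cell markers did not move alike in the 4 pigs. Of 7 Kupffer cell markers the sum was 764 CPM in pig 71 (control range 232 to 867), 380 in pig 95 (the lowest with PFA), 667 in pig 97 (OO range 629.5 to 949.9) and 1155 in pig 79 (the highest with OO+PFA). Of 3 neutrophil and monocyte markers the sum was 6.86 CPM in pig 71 and 19.3 in pig 79, each the highest of its diet. It was 3.46 CPM in pig 95 (PFA range 2.44 to 7.715) and 5.74 in pig 97 (OO range 3.95 to 15.7). Pig 79 also had the highest stellate cell sum, 1098 CPM over 6 markers where the other OO+PFA livers started at 343. The 4 libraries were also the extremes of their diets in the slope of log2 CPM deviations on GC content, a trait of the library. Per 10 percentage points of GC the slope was -0.205 in pig 71, close to the -0.202 of another control pig, -0.474 in pig 95 and -0.378 in pig 97, each the lowest of its diet, and 0.487 in pig 79, the highest. The part of these markers and of the GC slope in the result was not tested.

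**Figure D3:**
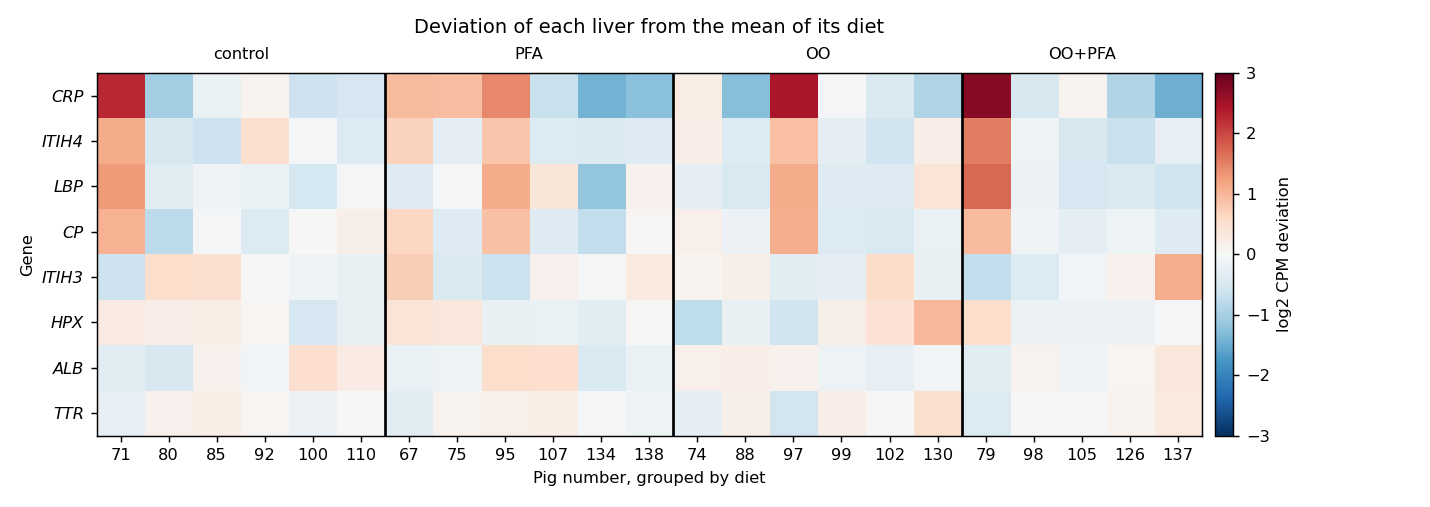
Deviation of each of the 23 livers from the mean of its diet in log2 CPM, for the 8 genes (rows) and the pigs (columns, grouped by diet), red above and blue below the mean. Pigs 71, 95, 97 and 79 stand out in the rows of CRP, ITIH4, LBP and CP, with CRP 2.26, 1.44, 2.45 and 2.74 above the diet mean, and all 4 are blue for ITIH3.

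Across the 23 livers the deviations from the diet means of CRP, ITIH4, LBP and CP ran together. These correlations are a description, given with no p, since a few high pigs weigh heavily in them and all genes of a liver share its library. Pearson's r was 0.85 between CRP and ITIH4 (Spearman's rho 0.61), 0.83 between CRP and CP (rho 0.56) and 0.79 between CRP and LBP (rho 0.54). Without the 2 livers farthest from the median of CRP, pigs 79 and 97, r was 0.75, 0.73 and 0.64. ITIH4 and CP had an r of 0.82, and LBP and CP of 0.80. ITIH3 and TTR ran the other way, with an r of -0.59 and -0.64 to CRP, which became -0.50 and -0.40 without those 2 pigs. For HPX and ALB the r to CRP was 0.08 and -0.13. HPX and ALB had an r of -0.51 to each other, with 11.99% of all genes having a lower r to HPX.

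The genes most like each member over the 23 livers are likewise a description. For CP they were FGG, the gamma chain of fibrinogen (r = 0.95, 0.92 without the 2 farthest livers), and XBP1, a factor of the secretory pathway (r = 0.94), ahead of a gene without a symbol. FGG was at 14559 CPM in pig 71, the highest of the control diet, and at 11553 in pig 97 and 12347 in pig 79, the highest of theirs. For CRP they were PID1 (r = 0.88), B4GALT1, a galactosyltransferase that acts on secreted glycoproteins (r = 0.86), and the complement gene C2 (r = 0.85). For ITIH4 they included STEAP3, a metalloreductase (r = 0.89), and MYD88, the adaptor of Toll-like and interleukin 1 receptors (r = 0.86), and for LBP they were CP and CRP themselves and XBP1 (r = 0.80, 0.79 and 0.79). HPX was most like TFR2, an iron sensor of hepatocytes (r = 0.93), SDF4 and ADISSP (r = 0.91 each). The level of HPX, whose exons hold 60.8% GC, lay beside the GC slope of the libraries with OO and OO+PFA, but not in control or with PFA. With OO, pig 74 (lowest HPX) had a slope of -0.347 and pig 130 (highest) of 0.370, and with OO+PFA pig 79 was highest in both. In control, pig 71 had the highest HPX and the lowest slope, -0.205. With PFA, pig 67 had the highest HPX at a slope of -0.163, and pig 134 the lowest HPX at 0.0255. The part of the slope in these likenesses was not tested. The genes most like ALB included OTC (urea cycle, r = 0.89) and ACSM3 (acyl-CoA synthesis, r = 0.88). For TTR they included ISCU (r = 0.83) and BRI3 (r = 0.81), and for ITIH3 PPP1R3G (r = 0.82) and ENO4 (r = 0.79).

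The other genes of the acute phase were taken from fixed lists. Of 24 other positive acute phase genes, 15 had a gene ID and 14 passed the filter on low counts, and 1 of the 14 was called by edgeR, in OO against control (2.71% of all genes) and across the diets (3.66% of all genes). DESeq2 called 2 across the diets (SERPINA1 and A2M) and 1 in OO against control (SERPINA1, adjusted p = 0.000537). In OO+PFA against control it called 1 (CD14). The gene called by edgeR was SERPINA1 (alpha-1-antitrypsin), lower with OO, at 1.29 ± 0.379 CPM against 3.09 ± 0.956 in control (SD, n = 6 each, log2 difference -1.25, standard error 0.27, adjusted p = 0.0150). The gene ID with this symbol was at 0.644 to 3.78 CPM in the livers, far under the other hepatocyte markers. SAA1 to SAA4, FGA and SERPINA3 were among the genes with no gene ID matched. Of the 14 genes, 10 had their highest control value in pig 71, 4 their highest PFA value in pig 95, 7 their highest OO value in pig 97 and 9 their highest OO+PFA value in pig 79. Over all genes tested, these pigs were the highest of their diet in 17.7, 29.0, 24.6 and 31.4% of genes. The 4 of 14 in pig 95 thus lay near its share of all genes. C4BPA was the one of these 14 genes that was highest in all 4 pigs, at 909.5, 992, 772 and 524 CPM. FGB, FGG, C3 and PLG were highest in pigs 71, 97 and 79, and with PFA in pig 67, where C3 reached 33077 CPM. Of 14 other negative acute phase genes, all 14 passed the filter and none was called in a diet comparison by edgeR, with 6 at an unadjusted p under 0.05 across the diets, beside 25.2% of all genes. The lowest p belonged to IGF1 (adjusted p = 0.0769) and SERPINA6, the cortisol carrier (adjusted p = 0.0800), and DESeq2 called 5 of the 14 across the diets, beside 1776 of 13831 genes, these among them (adjusted p = 0.0261 and 0.0155).

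Within the inter-alpha-trypsin inhibitor family, ITIH1 was the gene that moved with diet. ITIH1 lies in the same cluster on chromosome 13 as ITIH3 (34911104 to 34924881) and ITIH4 (34928455 to 34948250), which are read towards each other. It was at 155 to 511 CPM (median 282) in control, 116 to 202 CPM (median 166) with PFA and 85.4 to 162 CPM (median 117) with OO. In OO+PFA it was at 112 to 228 CPM (median 128). OO was 2.57-fold lower than control (log2 difference -1.36, standard error 0.25, adjusted p = 0.00283) and OO+PFA 2.12-fold lower (-1.09, standard error 0.26, adjusted p = 0.0229). With PFA alone the difference was -0.89 (standard error 0.24, adjusted p = 0.270 with edgeR and 0.0495 with DESeq2). ITIH2 was not called by edgeR (adjusted p = 0.0543 across the diets) but was by DESeq2 (adjusted p = 0.002255). Of the 5 family genes with an ID besides the members, 4 passed the filter, and across the diets 1 was called by edgeR, beside 3.66% of all genes, and 2 by DESeq2.

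Of 31 genes that carry the signal to the acute phase genes, 27 had a gene ID, 25 passed the filter and 3 were called in at least 1 test between diets. These were 2 across the diets, where 3.66% of all genes were called, and 2 in OO+PFA against control, where 5.08% were. DESeq2 called 3 across the diets, 3 in OO against control (CEBPA, CEBPB and IL6R) and 4 in OO+PFA against control (CEBPA, CEBPB, CEBPD and IL6R). CEBPB and CEBPD, C/EBP factors induced in the acute phase, were higher with OO+PFA. CEBPB was at 73.7 ± 22.4 CPM (SD, n = 5) against 29.1 ± 9.46 in control (SD, n = 6), 2.53-fold higher (adjusted p = 0.0121), and the 2 groups did not overlap. CEBPD was at 93.2 ± 53.3 CPM against 25.9 ± 4.57, 3.60-fold higher (adjusted p = 0.0209), again with no overlap, in a comparison where 9% of all genes did not overlap. The highest value of both was that of pig 79, at 104.9 and 188 CPM. The GC slope of the libraries also differed between these 2 groups. It ran from 0.0406 to 0.487 in OO+PFA, highest in pig 79, and from -0.205 to 0.0824 in control. The part of the slope in the levels of CEBPB and CEBPD was not tested. IL6R, the receptor of interleukin 6, was called across the diets (adjusted p = 0.0167) at 70.6 ± 5.50 CPM in control, 76.96 ± 13.2 with PFA, 52.1 ± 5.78 with OO and 54.6 ± 10.2 with OO+PFA (SD), although no single comparison with control passed with edgeR (adjusted p = 0.0544 for OO and 0.0870 for OO+PFA), while both did with DESeq2 (adjusted p = 0.0124 and 0.0407). STAT3 was highest of its diet in pig 79, at 431 CPM, and in pig 97, at 282 CPM, but not in pigs 71 and 95. Of 10 receptors and partners of the proteins, 8 passed the filter and none was called (HMOX1 adjusted p = 0.260 and FCGRT 0.114 across the diets), with 1 at an unadjusted p under 0.05 and 0 called by DESeq2 across the diets.

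**Figure D4:**
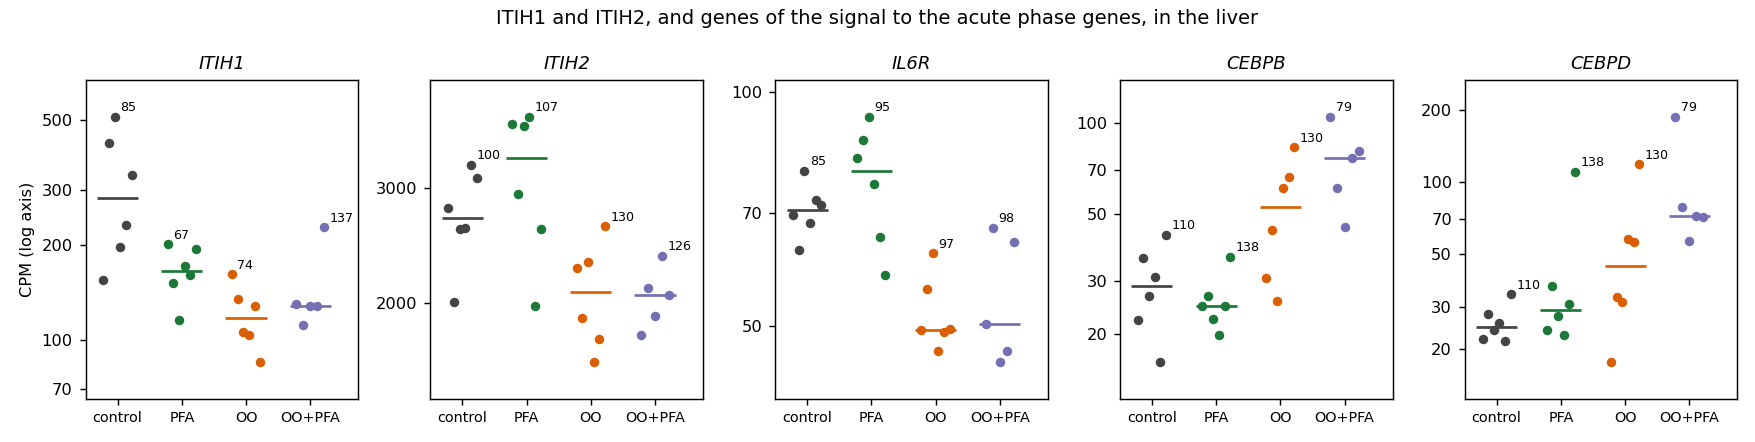
ITIH1 and ITIH2 of the inter-alpha-trypsin inhibitor family, and IL6R, CEBPB and CEBPD of the signal to the acute phase genes, in CPM (log axis) in the 23 livers by diet, with 1 point per pig, a bar at the median and the number of the highest pig. ITIH1 is highest in control (median 282 CPM), and CEBPB and CEBPD are highest with OO+PFA (medians 76.7 and 72.0 CPM).

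The ileum was the contrast tissue. In the 5 control pigs with both tissues, all 8 members were higher in the liver by edgeR's test over 14375 genes, of which 69.4% were called in either direction. Liver and ileum did not overlap for any member, and the share of all genes without overlap was not counted. Tissue and the making of the libraries cannot be told apart here. CPM in this comparison are scaled over both tissues and differ from those above. ALB, TTR and HPX were all but missing from the ileum. ALB gave 0 to 3 read pairs per ileum and HPX 1 to 3, and TTR gave 0 in all 5, so that TTR in the lowest of these livers was at least 50914-fold higher than the 3 counts per library taken as the floor. For ALB that bound was 807908-fold. CRP gave 3 to 6 read pairs per ileum (0.147 ± 0.0392 CPM, SD, n = 5) against 1973 ± 2321 CPM in the liver. The ratio of the pooled counts was 12063, with a 95% Poisson interval of 8039 to 19030.3 that covers counting error only.

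ITIH4, LBP and CP were read in the ileum as well. LBP was closest between the tissues, at 30.5 ± 13.4 CPM in the ileum and 469 ± 293 CPM in the liver (SD, n = 5), a log2 difference of 3.94 (standard error 0.44, adjusted p = 6.41e-06). ITIH4 was at 10.1 ± 1.33 CPM against 3655 ± 1822 (log2 difference 8.50, standard error 0.40, adjusted p = 2.44e-09) and CP at 1.30 ± 0.660 CPM against 3663 ± 1891 (log2 difference 11.46, standard error 0.58, adjusted p = 4.76e-09). ITIH3 gave 0 to 4 read pairs per ileum. Pig 71, whose liver was highest in all of CRP, ITIH4, LBP and CP, had 41.9 CPM of LBP, 11.4 of ITIH4 and 0.485 of CP in the ileum, the highest, the second highest and the lowest of the 5.

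**Figure D5:**
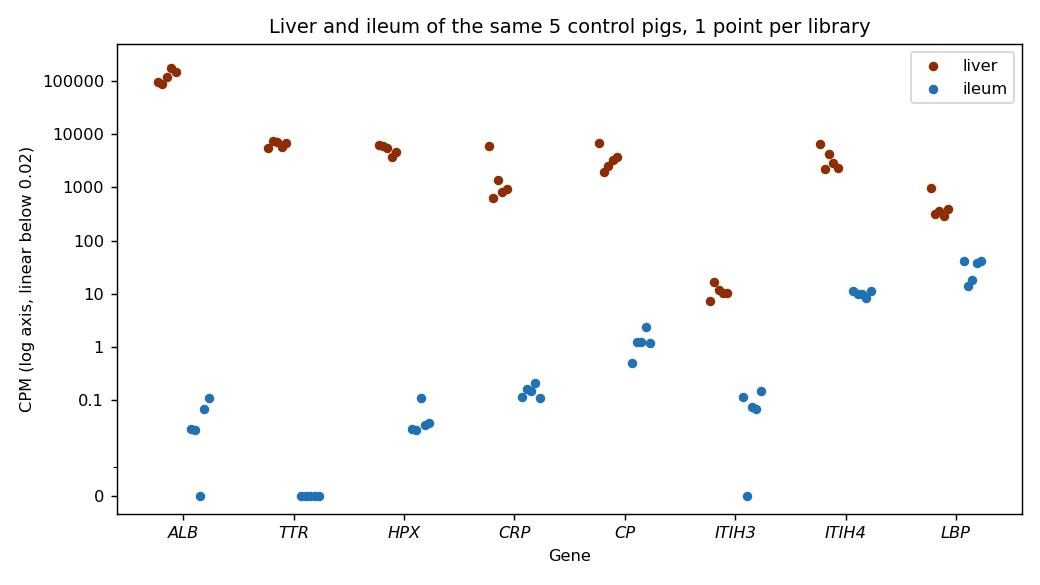
Level of the 8 genes in CPM in the liver and ileum of the same 5 control pigs, with 1 point per library on a log axis that is linear below 0.02 so that 0 can be shown. Liver and ileum are separate for every gene, with LBP closest (469 against 30.5 CPM on average) and TTR at 0 in all 5 ileum libraries.

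No member tested in the ileum differed between PFA and control after adjustment over all genes. Of the 8, 3 passed the filter (ITIH4, LBP and CP) and none was called, with 0% of 14300 genes called in all, 401 at an unadjusted p under 0.05 and 4 by DESeq2. On the scale of the 10 ileum libraries, CP was at 0.711, 1.77, 1.79, 1.79 and 3.38 CPM in control and at 2.19, 2.64, 3.02, 3.84 and 5.65 CPM with PFA. The groups overlapped, and the log2 difference was 0.88 (standard error 0.38, unadjusted p = 0.0408, adjusted p = 0.991). LBP was at 20.3 to 61.3 CPM in control and 22.3 to 65.5 CPM with PFA (log2 difference -0.26, standard error 0.36, adjusted p = 0.991), and ITIH4 at 12.02 to 16.95 and 10.04 to 18.01 CPM (-0.10, standard error 0.20, adjusted p = 0.991).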

How the data were processed

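Poly(A) RNA of liver and ileum was sequenced from stranded libraries. Per the labels and the study's methods, the authors aligned the reads with STAR 2.6.1d to Sscrofa11.1 and deposited HTSeq counts of read pairs per Ensembl gene, without normalization, and the strand option and annotation release are not given in the sources used here. The submitters' processing notes also name DESeq2 1.22.2. The lines of the count files that name no gene, such as read pairs outside genes (7.54 to 23.5 per 100 counted on genes in the 23 livers used), were left out of library sizes and tests. Precision is limited by the 5 or 6 pigs a group, and by counting error where a gene has few counts (3 counts per library were the floor against which a gene at 0 was set). The 2 tables that gather all libraries of a tissue were not used.

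Symbols came from a table of gene IDs, with a symbol for 14857 genes, and positions, exon lengths and upstream windows from RefSeq's annotation of Sscrofa11.1. The members and gene lists were chosen with earlier results of these data known. All members with values are named, of each list the genes called in a comparison or, where none was, the 2 with the lowest p across diets, and for each member the 3 genes of highest Pearson correlation, except that genes without a symbol are not named and 1 gene is not reported here. Pigs, and list genes named for their level in 1 pig, were picked after their values were seen.

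Counts were scaled by TMM, filtered with filterByExpr and tested with edgeR 4.0.16 (quasi-likelihood, limma 3.58.1, R 4.3.3), two-sided, with Benjamini-Hochberg adjustment over all genes kept and a threshold of 0.05. The liver fit held 23 libraries without OO+PFA pig 77, the ileum fit 10, and the tissue fit the 5 control pigs with both tissues. Deviations used log2 CPM with a prior count of 2. The fits were tested on simulated counts. DESeq2 1.42.0, other scaling, other filters, all 24 livers, a term for the 2 forms of the library titles, a GC correction (lowess, span 0.5), the 2 diets alone, a fold of at least 2 and leaving out each pig were alternatives. GC content was known for 79.7% of the genes tested and not for CRP, so a GC check over all genes is void. Liver and ileum of the tissue fit are paired by pig, as the titles carry the same number: the deviations of a pig's liver and ileum had a correlation across genes of -0.0388 to 0.333. Python 3.11.15, numpy 2.4.6, pandas 2.3.3, samtools 1.23.1, Biopython 1.88 and matplotlib 3.10.9 handled tables, sequences and figures.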

Additional observations from a re-analysis of the deposited data

Results flagged for a closer look

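Of 39 sets of 1 gene in the livers of 1 diet or the ileum of 1 group, 10 held a sample far from the others by Dixon's criterion at 95%. The criterion flags about 1 in 20 sets of independent, normally distributed values. These sets share livers, CPM need not follow that distribution, and the share flagged over all genes was not counted. The 10 flagged sets are therefore a description and no measure against chance. All 10 are the highest value of 3 pigs. Control pig 71 was far above the other control livers in CRP (4194 CPM against 427 to 938), LBP (679 CPM against 195 to 267) and CP (4685 CPM against 1324 to 2547). OO pig 97 was far above the other OO livers in CRP (3583 CPM against 270.3 to 762) and CP (4342 CPM against 1480.5 to 2275). OO+PFA pig 79 was far above the other OO+PFA livers in CRP (4118 CPM against 223 to 662), ITIH4 (3747 CPM against 807 to 1164), LBP (549 CPM against 109 to 147), HPX (6226 CPM against 3824 to 4245) and CP (3487 CPM against 1396 to 1686). PFA pig 95, the highest of its diet in CRP, was not among them, as pigs 67 and 75 lay between it and the rest.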

How the results depend on the processing

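The count of members called stayed at 0 in PFA against control, OO+PFA against OO, OO+PFA against control, the interaction and the ileum under every alternative tried. For OO against control it rose from 0 to 1 (ITIH3) with DESeq2 and with the GC correction, and ran from 0 to 1 when each pig was left out (1 without the OO+PFA pig of highest ITIH3), and across the 4 diets it rose to 1 with DESeq2. For liver against ileum it fell from 8 to 3 when at least 10 counts were asked of every library, as 5 members had fewer in the ileum and were not tested. Of 1304 recomputed diet differences of members in liver and ileum, 3 passed the threshold, all ITIH3 in OO against control (log2 differences -0.96 with DESeq2, -0.93 with the GC correction and -0.93 without that pig), and 69 had the other sign, in 21 of 43 differences. For CRP, OO against control ran from -1.33 without OO pig 97 to 0.61 without control pig 71, and OO+PFA against control reached -1.59 without pig 79. ITIH4 and LBP in OO+PFA against control reached -1.22 and -1.33 without pig 79 (adjusted p = 0.0787 and 0.0824). With the pig as replicate block all 8 members were called between liver and ileum, from 3.92 (LBP) to 21.24 (ALB) on the log2 scale, and the block changed no call.

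Over all genes, DESeq2 called 1776 across diets against 506, 1079 against 375 for OO, 1370 against 702 for OO+PFA against control, 150 against 0 for the interaction and 43, 31 and 4 against 0 for PFA, OO+PFA against OO and the ileum. Leaving out a pig gave 167 (OO pig 130) to 1325 (OO pig 97) for OO, 191 (control pig 71) to 1127 (OO pig 97) for OO+PFA against control, and 297 (control pig 85) to 1450.0 (OO pig 97) across diets. All 24 livers gave 224, 1530.0 and 1113, and the 2 diets alone 194 for OO and 1690.0 for OO+PFA. The GC correction gave 810, 803 across diets, 11 for OO+PFA against OO and 6 for the interaction. A fold of at least 2 left 153 for OO, 453 for OO+PFA against control and 6439 of 9978 between tissues. Apart from the alternative's own construction, the cause of these shifts was not tested. A fit in the genes with a GC value but without the correction was added after seeing the data.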

Other observations

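Liver pig 77 of OO+PFA, left out of the comparisons, had, on the scale of all 24 livers, 300.3 CPM of CRP, 734 of ITIH4, 19.9 of LBP and 389 of CP, with 18590 of ALB and 5342 of TTR. ITIH4, LBP, CP and ALB were the lowest of all 24 livers there, while HPX (5388 CPM) and ITIH3 (8.47 CPM) lay within the range of the others. In this library 36.6 read pairs aligned to several places per 100 counted on genes, against 3.01 to 14.7 in the other livers.

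Of 10 hepatocyte markers, 5 were called across the diets by edgeR's quasi-likelihood test, beside 3.66% of all genes. These were TAT, PCK1, ARG1 and CYP2E1 (adjusted p = 0.000991, 0.000811, 0.00123 and 0.0336) and SERPINA1, given above (adjusted p = 0.0478). TAT (tyrosine breakdown), ARG1 (the last step of the urea cycle) and PCK1 (gluconeogenesis) were higher with OO+PFA than in control, by 1.42, 0.97 and 1.42 on the log2 scale (adjusted p = 0.00310, 0.0189 and 0.0351). CYP2E1, a cytochrome P450 that oxidizes ethanol and fatty acids, was lower with OO and with OO+PFA, with log2 differences of -0.62 and -0.58 (adjusted p = 0.0211 and 0.0322). These are the same livers in which no acute phase member was called. APOA4, listed among the enterocyte markers, was also called across the diets (adjusted p = 0.00890) and reached 675 CPM in 1 liver, where FABP2 and SI stayed at or near 0.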
